A study of Mus musculus with 3 samples.

Results

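Macrophages were found among the cells of primary mouse mammary tumour cultures that had been sequenced one cell at a time. A cell from a collagen or Matrigel culture was taken as a macrophage when it held at least 1000 transcript counts (unique molecular identifiers, UMIs), when at least 3 of the 4 genes Tyrobp, Fcer1g, Ctss and Lyz2 were detected, and when these genes together made up at least 10 of every 10000 UMIs. The rule found 186 cells of 7620, beside 7018 other culture cells with at least 1000 UMIs. Of the 186, 151 held all 4 genes and 35 held 3. The cells nearest to the threshold held 10.7, 11.4 and 12.1 rule-gene UMIs per 10000 on the inside and 9.12, 7.44 and 7.41 on the outside, the median was 74.5 and the highest value 558. None of the 313 cells of the 4T1 mammary carcinoma line, which was grown on plastic and loaded beside the cultures, met the gene criteria.

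The tumours came from 4 FVB mice, numbered 1 to 4, that carried the C3(1)-Tag transgene, in which the C3(1) promoter drives the SV40 large T antigen in mammary epithelium. The animals were between 25 and 30 weeks old and bore primary tumours of 20 mm. Freshly isolated tissue at passage 0 was plated as organoids in collagen I or as clusters in Matrigel, in DMEM/F12 with insulin-transferrin-selenium, antibiotics and 2.5 nM FGF2 in both matrices. The gels were opened differently (collagen with collagenase, Matrigel with cold EDTA), so matrix and release method cannot be told apart. Cells were tagged by mouse and matrix (MULTI-seq), pooled, sorted for exclusion of propidium iodide and loaded as 1 pool a day. The 3 pools are D1, D3 and D5 in the cell annotation and day 0, day 3 and day 5 in the labels, and the assignment of D1 to the day 0 pool, taken 12 hours after plating, is an inference from this order. Each pool is also a batch of its own (1, 2 and 3), so day and pool cannot be told apart. The labels describe the cultured cells as primary cancer cells and name no macrophage fraction.

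Macrophages are phagocytes of the myeloid lineage that live in nearly every tissue and are abundant in mammary tumours. TYROBP (DAP12) and FCER1G are adaptor proteins that carry the signal of many myeloid receptors, CTSS is a lysosomal protease that trims the invariant chain of MHC class II, and LYZ2 is lysozyme. Macrophages clear dying cells, present antigen, recycle haem iron with heme oxygenase, secrete chemokines that recruit other leukocytes, and respond to interferons and to NF-kB activating signals with large changes in transcription.

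Expression is given as CPM, the UMI count of a gene scaled to 1000000 UMIs, over all macrophages of 1 mouse, matrix and day, added into 1 sum. In the gene tests 1 such sum was the replicate, and the p-values measure the spread between these sums. Where the mouse is not in the model, sums of the same mouse are treated as independent. In sums of a mixed pool, a smaller number of cells that express a gene and less RNA of it per cell cannot be told apart.

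At D1 Apoe, the lipid carrier apolipoprotein E, was the gene that most separated the macrophages from the other cells of the same cultures, with 10099.9 CPM over all macrophages and 24.5 CPM over the other cells, a log2 ratio of 7.83 with 20 CPM added to both. Cd74, the MHC class II invariant chain, had 8342 against 50.6 CPM (6.89), and Clec4n, the fungal-glycan receptor Dectin-2, had 2913 against 5.21 CPM (6.86). Each was higher in macrophages in 4 of 4 mice. The chemokine gene Ccl5 reached 21139 CPM, or more than any other of the 20 most separated genes, against 284 CPM in the other cells (6.12). Il1b, the inflammatory cytokine, had 2897 against 13.8 CPM (6.43), Cybb, the catalytic subunit of the phagocyte oxidase, 875 against 0.784 CPM (5.43), and Acod1, which makes itaconate, 861 against 2.95 CPM (5.26). The rule genes had 3391 CPM (Lyz2), 2215 CPM (Fcer1g), 1671 CPM (Ctss) and 1161 CPM (Tyrobp), against 1.57 to 4.06 CPM in the other cells. Since the cells were chosen on macrophage genes, these differences are a description without a test.

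**Figure D1:**
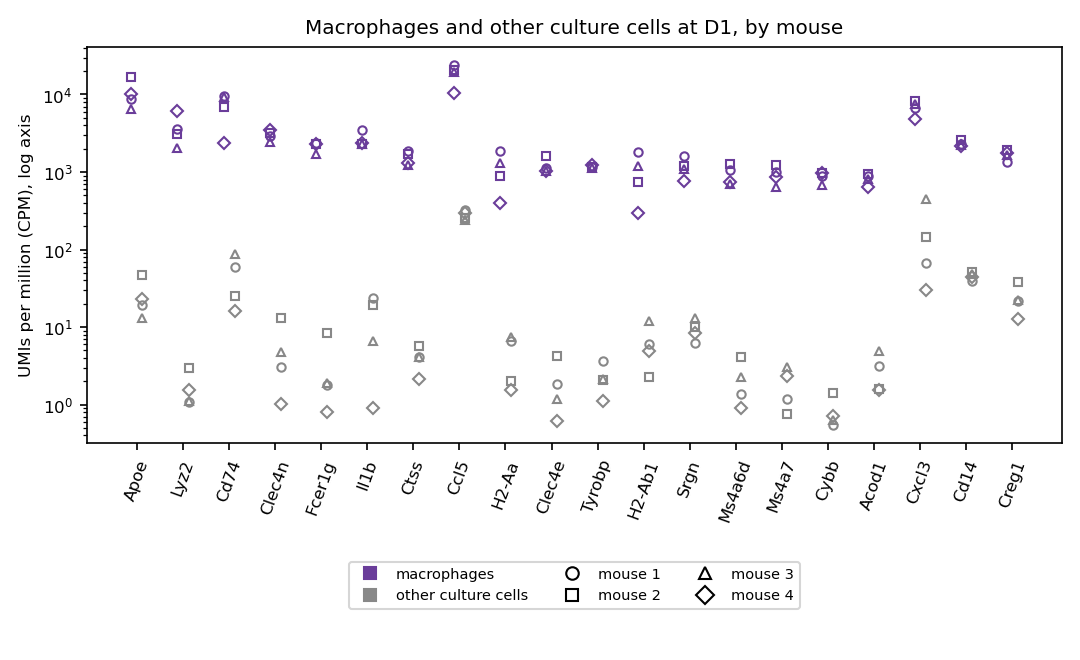
Level of marker genes in macrophages and in all other culture cells of each mouse at D1, in CPM on a log axis, 1 point a mouse and class. For Apoe, Cd74, Lyz2 and Il1b every macrophage point lies above every point of the other cells.

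Marker lists that the rule did not use were then read in each cell, counting a list as present where at least 2 of its genes were detected and they made up at least 10 UMIs per 10000. A list of 16 pan-macrophage genes (Csf1r, Adgre1, Cd68 and others) was present in 186 of 186 macrophages and in 141 of the 7018 other cells (2.01%). The dendritic cell list was present in 18 macrophages (9.68%), the neutrophil list in 11 (5.91%) and the epithelial list in 4. No macrophage held the T and NK, B, mast cell, fibroblast or endothelial list, and 0 of 186 cells allows a share of up to 1.61%. The pan-macrophage list was thus present in every cell that the rule chose, and the dendritic and neutrophil signals are given again beside the genes they touch. The macrophages held a median of 14986.5 UMIs (range 1070 to 77120), and no macrophage shared its barcode with a cell of another pool.

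Macrophages were common at D1, rare in collagen at D3 and nearly absent at D5. At D1 they numbered 157, at D3 28 and at D5 1. In collagen at D1 their share of the cells with at least 1000 UMIs was 8.97% in mouse 1 (34 of 379 cells), 7.21% in mouse 2 (15 of 208), 3.83% in mouse 3 (7 of 183) and 0.897% in mouse 4 (2 of 223). In Matrigel at D1 it was 11.1% (44 of 397), 6.65% (24 of 361), 4.96% (21 of 423) and 1.66% (10 of 604) in the same mice. The order of the mice was the same in both matrices, and mouse 4 had the lowest share in each. The means were 5.23% ± 3.59 (SD, n = 4) in collagen and 6.09% ± 3.92 (SD, n = 4) in Matrigel, a difference of -0.862 percentage points that was smaller than the spread between mice (exact two-sided permutation test, p = 0.771, 0.8 after Benjamini-Hochberg adjustment over 5 share comparisons).

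In collagen at D3 the share was 0.674% in mouse 1 (3 of 445), 0.67% in mouse 2 (8 of 1194), 0.127% in mouse 3 (1 of 787) and 0 of 123 cells in mouse 4, a count that allows a share of up to 2.44%. The mean fell by 4.86 percentage points from D1 and was lower in 4 of 4 mice, with an exact two-sided permutation p = 0.0286, the smallest that 4 against 4 allows, and 0.143 after adjustment. The same change tested within mice gave an exact permutation p = 0.125, again the smallest possible. In Matrigel at D3, mouse 1 had 9.26% (5 of 54 cells, exact 95% interval 3.08 to 20.3%) and mouse 2 had 6.51% (11 of 169, 3.29 to 11.3%), while mice 3 and 4 had 0 of 107 and 0 of 375 cells, which allow up to 2.8% and 0.8%. The mean difference from D1 was -2.15 percentage points (exact permutation p = 0.457). The Matrigel share was lower at D3 than at D1 in 4 of 4 mice, and 4 pairs of cultures tested within mice gave p = 0.125 by exact permutation, as low as 4 pairs can give. At D5 the only macrophage was 1 of 349 collagen cells of mouse 2, and no Matrigel culture held one, at 12 to 51 cells a culture, which allows up to 5.88% in the largest and 25.0% in the smallest. Since the labels give no count of the cells recovered, a share can fall through fewer macrophages or through more of the other cells, and these cannot be told apart.

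**Figure D2:**
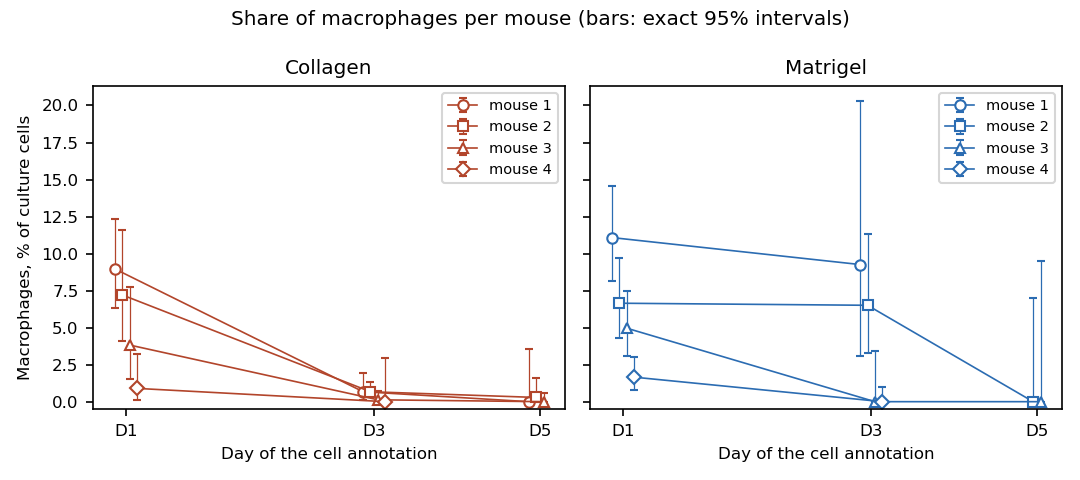
Share of macrophages among the cells with at least 1000 UMIs, in percent, by day for each mouse in collagen and in Matrigel, with exact 95% binomial intervals that cover counting error only. At D3 the Matrigel cultures of mice 1 and 2 are at 9.26% and 6.51%, and the highest collagen value is 0.674%.

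The macrophages of collagen were shallower than those of Matrigel at D1, a difference that did not pass after adjustment. The median number of UMIs per macrophage was 12792, 9141, 14532 and 12877 in collagen and 15541, 15693.5, 16754 and 18555.5 in Matrigel for mice 1 to 4. The 2 sets did not overlap, with a difference of -4300 UMIs (exact permutation p = 0.0286, 0.0857 after adjustment over 3 comparisons of cell quality). Mitochondrial transcripts made up 1.80% in collagen and 2.56% in Matrigel on average over mice (exact permutation p = 0.0571). The part of depth and of mitochondrial transcripts in the gene differences was not tested.

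Between collagen and Matrigel at D1, 5 genes differed in macrophages. Of 4969 genes tested, 3 were higher (0.0604%) and 2 lower (0.0402%) in collagen, together 0.101% (edgeR quasi-likelihood test, adjusted p under 0.05). The test had 2 collagen sums with 10 or more macrophages (mice 1 and 2) against 4 Matrigel sums. Of the 137982 UMIs in the collagen sum of mouse 2, 37224 came from 1 cell, which is described under Other observations. That cell held 20.4 rule-gene UMIs per 10000, beside a median of 74.5 over all macrophages. The part of this cell in the gene differences was not tested. Hal, histidine ammonia-lyase, had 99.3 and 43.5 CPM in the collagen macrophages of mice 1 and 2, and 1.34, 0, 5.21 and 5.11 CPM in the Matrigel macrophages of mice 1 to 4. No Matrigel value came near the collagen values (log2 difference 4.90, SE 0.65, adjusted p = 0.0488). The 2 smaller collagen sums, left out of the test, had 49.4 and 77.7 CPM. In mouse 1 the 51 Hal UMIs came from 11 of 34 cells, whereas in mouse 2 they were 6 UMIs from 2 of 15 cells. The gene lies at chr10:93488768-93519304 (GRCm38).

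Gatm, the mitochondrial amidinotransferase that begins creatine synthesis, had 121 and 210.2 CPM in the collagen macrophages of mice 1 and 2, and 18.7, 12.9, 26.1 and 40.9 CPM in the Matrigel macrophages of mice 1 to 4. The groups did not overlap (log2 difference 2.82, SE 0.38, adjusted p = 0.0488), but the smaller collagen sums of mice 3 and 4 had 49.4 and 0 CPM. In mouse 1 the 62 collagen Gatm UMIs came from 16 of 34 cells. In mouse 2 there were 29 UMIs from 7 of 15 cells, 51.7% of them from 1 cell. Plekho1, a pleckstrin homology protein that binds casein kinase 2 (CKIP-1), had 148 and 196 CPM in the collagen macrophages of mice 1 and 2, and 54.9, 33.7, 36.5 and 51.1 CPM in the Matrigel macrophages of mice 1 to 4. All collagen values, including 316 and 116 CPM in the smaller sums, were above all Matrigel values (log2 difference 1.95, SE 0.28, adjusted p = 0.0488). On the other side, Il1f9, an interleukin-1 family cytokine known as IL-36 gamma, had 9.74 and 14.5 CPM in the collagen macrophages of mice 1 and 2, and 177, 119, 302 and 164 CPM in the Matrigel macrophages of mice 1 to 4. It was low in each collagen sum (log2 difference -4.04, SE 0.55, adjusted p = 0.0488), with 78.97 and 0 CPM in the smaller ones. Cyb5a, cytochrome b5, had 576 and 478 CPM in the collagen macrophages of mice 1 and 2, and 1676, 2449.6, 1799 and 2141 CPM in the Matrigel macrophages of mice 1 to 4 (log2 difference -1.89, SE 0.27, adjusted p = 0.0488). The Matrigel values were again all higher, also than 1007 and 427 CPM in the smaller collagen sums.

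The number of genes depended on whether the mouse entered the model. The same mice gave both matrices, so the mouse pairs the samples, and with it as a block 218 genes passed (120 higher in collagen, 2.41%, and 98 lower, 1.97%, together 4.39%), among them all 5. That fit estimates the matrix difference from mice 1 and 2 only. It has 1 residual degree of freedom, beside a median of 33.9 borrowed from the other genes. Its p-values therefore rest mainly on a spread shared over genes, and little on the spread between mice. Without mouse 1, 2 or 3, none of the 5 passed, and the counts were 5, 0 and 0 genes. Leaving out mouse 1 or 2 leaves 1 collagen sum, whose spread is taken to be that of the other sums.

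**Figure D3:**
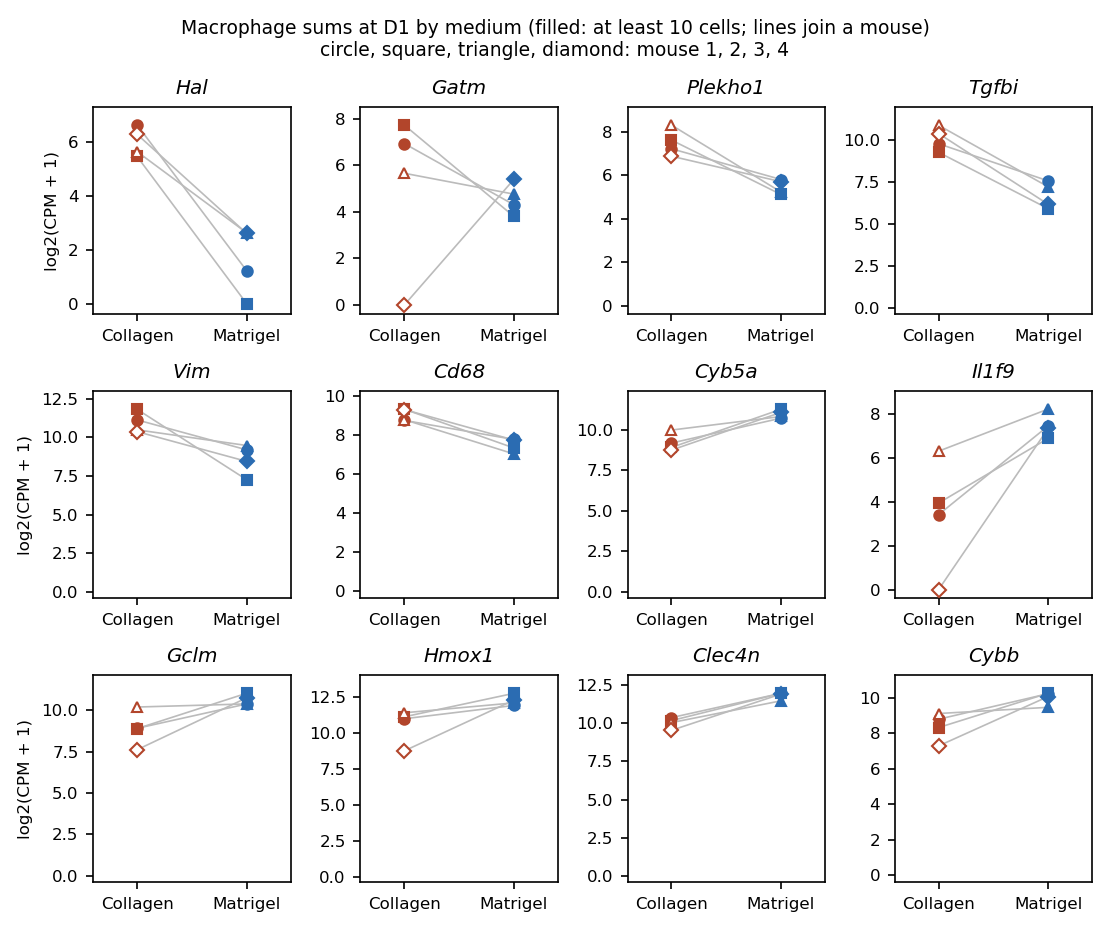
Level as log2(CPM + 1) of the 5 genes that passed and of other named genes in the macrophages of each mouse at D1, collagen beside Matrigel, with lines that join a mouse and open symbols for sums under 10 cells. For Hal, Plekho1, Il1f9 and Cyb5a, collagen and Matrigel values do not overlap in any mouse.

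Several further genes passed with the mouse in the model but not without it in the sums of at least 10 cells. Tgfbi, a secreted matrix protein induced by TGF-beta, had 890.1 and 623 CPM in the collagen macrophages of mice 1 and 2, and 190.1, 59.6, 149 and 71.5 CPM in the Matrigel macrophages of mice 1 to 4. Collagen was higher throughout, also in the smaller sums (1915 and 1359 CPM), and the gene missed the threshold without the mouse in those sums (log2 difference 2.68, SE 0.42, adjusted p = 0.0535) and passed with it (2.70, adjusted p = 1.74e-06). Vim, the intermediate filament vimentin, had 2234 and 3587 CPM in the collagen macrophages of mice 1 and 2, and 584, 153, 709 and 348 CPM in the Matrigel macrophages of mice 1 to 4 (log2 difference 2.71, SE 0.46, adjusted p = 0.0535; with the mouse 3.13, adjusted p = 1.74e-06). In mouse 2, 72.9% of the 495 collagen Vim UMIs came from 1 of 15 cells, and in mouse 1 the highest cell held 31.8%. After thinning each cell to 2000 UMIs, a Vim UMI was found in 81.1% of the collagen macrophages at D1 and in 34.0% of those from Matrigel (92.5% and 70.1% before thinning), beside 13.8% of the other cells. In the other cells Vim had means of 849 CPM in collagen and 231 CPM in Matrigel, and the difference between matrices did not differ detectably between the classes (edgeR interaction 0.74, adjusted p = 0.881). Cd68, a lysosomal membrane protein, Fcgr1, the high-affinity IgG receptor, and Ldha, lactate dehydrogenase, also passed with the mouse and not without it, with log2 differences of 1.58, 2.97 and 1.74 in the fit without it. With sums of at least 5 cells, which add collagen mouse 3, Tgfbi, Vim and Cd68 passed without the mouse as well (log2 differences 3.204, 2.43 and 1.48, adjusted p = 0.017, 0.0377 and 0.0377), and Fcgr1 and Ldha did not (adjusted p = 0.0647 and 0.271).

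Antioxidant and haem genes had the lowest median of the 24 functional gene lists in the comparison of collagen with Matrigel. All 18 genes of the list were tested, 16 had a log2 difference below 0 and the median was -1.27, beside -0.001 over all genes tested. None passed without the mouse in the model, and 10 passed, all lower in collagen, with it. Gclm, the modifier subunit of the enzyme that begins glutathione synthesis, had 477 and 471 CPM in the collagen macrophages of mice 1 and 2, and 1325, 2074, 1327 and 1712 CPM in the Matrigel macrophages of mice 1 to 4. Matrigel was higher than collagen in each mouse (log2 difference -1.73, SE 0.28, adjusted p = 0.0535; with the mouse -1.81, adjusted p = 0.000174). Gclc, the catalytic subunit, Txnrd1, thioredoxin reductase, and Cat, catalase, had log2 differences of -2.36, -1.53 and -1.55. Hmox1, the inducible heme oxygenase, had 2014 and 2210.4 CPM in the collagen macrophages of mice 1 and 2, and 3827, 6862, 4329.7 and 4937 CPM in the Matrigel macrophages of mice 1 to 4 (log2 difference -1.22, SE 0.30, adjusted p = 0.15; with the mouse -1.30, adjusted p = 0.00954).

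In the other cells of the same cultures the list lay on the same side. Of the 18 genes 16 were below 0 with a median of -0.664, and 4 passed as lower in collagen, where 0.256% of all genes passed as lower and 0.916% in either direction. Hmox1 was far less abundant there, with means of 124 CPM in collagen and 1054 CPM in Matrigel, and its log2 difference was -3.10 (adjusted p = 4.71e-05). The difference between the classes for Hmox1 was 1.81 (adjusted p = 0.193). Over the whole transcriptome no gene of 12112 (0%) passed the edgeR test of a difference between the matrix effects in macrophages and in other cells, 1000 had an unadjusted p under 0.05, and 10 passed with the culture as a block.

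**Figure D4:**
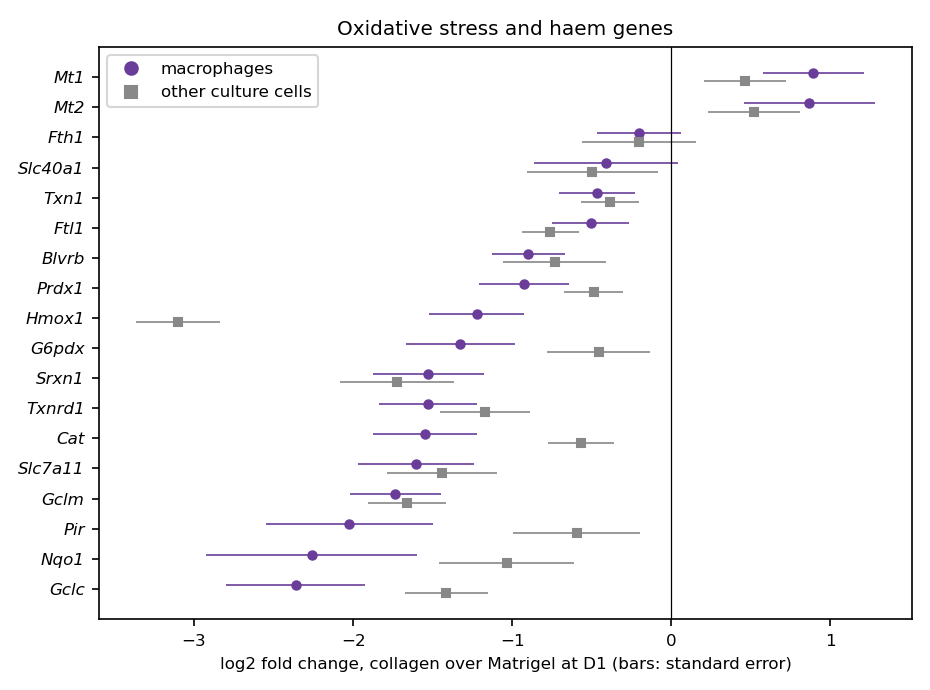
Log2 difference between collagen and Matrigel at D1 of the antioxidant and haem genes in macrophages and in the other culture cells, with standard errors, from the fit on macrophages alone and from the joint fit of both classes. In macrophages 16 of 18 genes lie below 0 and in the other cells also 16 of 18.

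Antioxidant genes are known for promoter elements with the core TGACNNNGC (reverse complement GCNNNGTCA), the antioxidant response element. In RefSeq promoter windows of 300 bases (GRCm38.p6), this core occurred on either strand in 7 of the 15 list genes that have a window (46.7%) and in 14% of all 27025 genes. The 200 bases before the start sites of Gclm (chr3:122245357-122245556, plus strand) and Txnrd1 (chr10:82859006-82859205, plus strand, 1 of its 3 windows) are shown, with the match in capitals. Both genes are examples picked from the 7 that hold the core, and both were among the 10 that passed with the mouse. A match is a run of letters and not a measured binding site.
Gclm: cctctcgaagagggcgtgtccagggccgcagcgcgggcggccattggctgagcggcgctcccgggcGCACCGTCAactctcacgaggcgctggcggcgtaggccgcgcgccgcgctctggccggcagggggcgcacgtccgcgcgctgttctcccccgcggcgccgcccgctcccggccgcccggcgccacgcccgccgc
Txnrd1: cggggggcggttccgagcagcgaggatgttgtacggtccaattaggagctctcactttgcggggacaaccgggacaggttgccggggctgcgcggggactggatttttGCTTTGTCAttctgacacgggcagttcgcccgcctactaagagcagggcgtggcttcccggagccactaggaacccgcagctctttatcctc
The Gclm match begins 134 bases and the Txnrd1 match 92 bases before the start site, and both are on the strand opposite to the gene.

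Interferon, complement and lysosome genes lay on the collagen side. Of 22 interferon response genes tested, 21 were above 0 with a median log2 difference of 0.765, and none passed; with the mouse in the model 14 were above 0, the median was 0.287 and Ifit2 and Cxcl10 passed. In the other cells 22 of 22 were above 0, the median was 1.68 and 8 passed as higher in collagen, where 0.661% of all genes did. All 8 tested complement genes were above 0 (median 1.17), and C1qa, C1qb and C1qc, the 3 chains of the C1q recognition protein, passed only with the mouse. Of 18 lysosomal genes 17 were above 0 (median 0.526), and of 8 MHC class II genes 7 were (median 0.794), with no call in either fit for MHC class II.

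Keratin transcripts were seen in some macrophage sums. Krt8, a simple epithelial keratin, had 136 and 14.5 CPM in the collagen macrophages of mice 1 and 2, and 8.03, 2.59, 5.21 and 128 CPM in the Matrigel macrophages of mice 1 to 4, and 97.1% of its UMIs in the first of these sums came from 1 cell. Krt18, its partner keratin, had 191 and 43.5 CPM in the collagen macrophages of mice 1 and 2, and 16.1, 12.9, 13.03 and 521 CPM in the Matrigel macrophages of mice 1 to 4, and 94.9% of its UMIs in the first of these sums came from 1 cell. With the mouse in the model both keratins passed (3.88, adjusted p = 1.98e-05 for Krt8 and 3.07, adjusted p = 6.3e-05 for Krt18), and neither did without it. The 11 epithelial markers together had 448 CPM in collagen mouse 1 and 2420.0 CPM in Matrigel mouse 4, against 51.8 to 116 CPM in the other 6 sums at D1 and 6350.0 to 9570.0 CPM in the other cells. Leaving out the 5 macrophages with at least 10 epithelial UMIs per 10000, all 5 genes named above still passed, in a total of 40.

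From D1 to D3, the chemokine genes Ccl2, Ccl7 and Ccl12 and 5 of 7 complement genes rose in macrophages, and 15 of 21 interferon response genes, 4 of 6 MHC class II genes and 7 of 15 inflammatory genes fell. This comparison was chosen after the cell numbers were seen, with sums of at least 5 macrophages: 7 at D1 (collagen mice 1 to 3, Matrigel mice 1 to 4) and 3 at D3 (collagen mouse 2, Matrigel mice 1 and 2), so that D3 rests on 24 cells of 2 mice. Of 3286 genes tested, 319 rose (9.71%) and 333 fell (10.1%), together 19.8%. In the other culture cells 23.9% of 10562 genes passed between the same pools. For 343 genes (3.25%) the change differed between macrophages and the other cells. Without mouse 2 only the Matrigel sum of mouse 1 stands for D3, its spread is assumed to be that of the other sums, and 87 genes passed. Without mouse 1, 254 passed. With the mouse as a block, 544 genes passed (246 higher, 7.49%, and 298 lower, 9.07%, together 16.6%), 477 of them among the 652.

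Ccl2, Ccl7 and Ccl12 encode CC chemokines that act on the monocyte receptor CCR2, and lie in 1 cluster on chromosome 11. Ccl2 had 0, 13.03 and 239.6 CPM (lowest, median and highest of the 7 sums) at D1, and 2597 CPM in mouse 2 in collagen and 7048 and 4916 CPM in mice 1 and 2 in Matrigel at D3. Every tested D3 sum was above every tested D1 sum (log2 change 8.42, SE 1.06, adjusted p = 0.000218). Ccl7 had 0, 2.59 and 21.7 CPM at D1 and 909.9, 6606 and 3317 CPM in the same 3 sums at D3 (log2 change 9.77, SE 0.68, adjusted p = 2.51e-06). Ccl12 had 0, 0 and 52.6 CPM at D1 and 1668, 3195 and 1435 CPM at D3, again without overlap (log2 change 8.22). The smaller D3 sums of collagen mice 1 and 3 (3 and 1 cells, 87027 and 14843 UMIs) were left out of the test. Both held 0 Ccl2 and 0 Ccl7 UMIs, and they held 2 and 0 Ccl12 UMIs, so the rise was not seen there. Detection was compared after thinning each cell to 2000 UMIs, which left out 7 shallower macrophages of D1 and none of D3. Ccl2 was detected in 5.33% of 150 D1 and 75.0% of 28 D3 macrophages (9.33% and 75.0% before thinning), beside 4.74% and 3.06% of the other cells. Their median depths before thinning were 14807 and 19494 UMIs in macrophages and 17254.5 and 37383 UMIs in the other cells. Ccl7 was detected in 0 of 150 and in 42.9% of the thinned macrophages (4.00% and 64.3% before thinning), beside 0.648% and 1.06% of the other cells. These calls were kept without mouse 1 and without mouse 2.

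Pf4, the CXC chemokine platelet factor 4, which is also made by tissue macrophages, had 116, 334 and 458 CPM at D1 and 3417 CPM in mouse 2 in collagen and 24123 and 11901 CPM in mice 1 and 2 in Matrigel at D3 (log2 change 5.18, SE 0.45, adjusted p = 1.12e-05). Its detection in thinned cells went from 23.3% (exact 95% interval 16.8 to 30.9%) to 78.6% (59.0 to 91.7%), beside 0.162% and 0.156% of the other cells. Of the D3 collagen sums left out of the test, mouse 1 held 43 Pf4 UMIs among 87027, all in 1 of 3 cells. Mouse 3 held 0 among 14843 in its 1 cell. In collagen the tested rise of Pf4 thus rests on mouse 2. Spp1, the secreted phosphoprotein osteopontin, had 135, 592 and 1715 CPM at D1 and 14392, 40893 and 22476 CPM at D3 (log2 change 5.29, SE 0.56, adjusted p = 7.38e-05). It became one of the most abundant macrophage transcripts, in both matrices. The other cells also contain Spp1, with a median of 1929 CPM at D1 and 5609.5 CPM at D3, and on the log2 scale the macrophage change was larger by 3.82, adjusted p = 0.00531. For Ccl2 and Pf4 the macrophage change exceeded that of the other cells by 6.90 and 3.91.

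The gene for Ccl5, the most abundant macrophage chemokine at D1, went the other way. It had 10978, 20542 and 29781 CPM at D1 and 1545 CPM in mouse 2 in collagen and 0 and 0 CPM in mice 1 and 2 in Matrigel at D3 (log2 change -6.17, SE 1.23, adjusted p = 0.00429). At D3, 1 cell of collagen mouse 2 that also held Ccr7 and Fscn1 carried 206 Ccl5 UMIs and a second cell 104. Of 16 chemokine genes tested, 6 rose and 6 fell, with a median log2 change of 0.416 beside -0.005 over all genes tested.

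**Figure D5:**
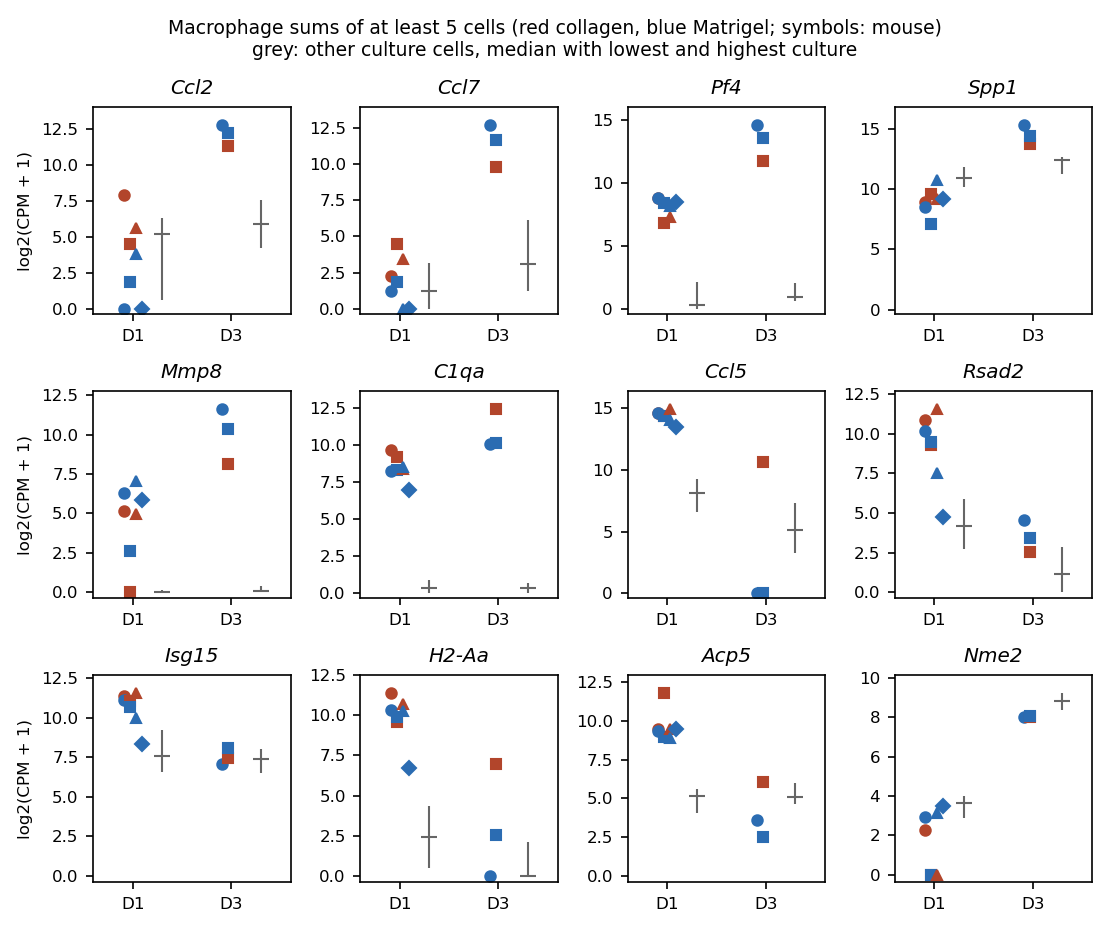
Level as log2(CPM + 1) of genes that rose or fell between D1 and D3, 1 point for each sum of at least 5 macrophages, coloured by matrix, with the median, lowest and highest culture of the other cells in grey. Ccl2, Ccl7, Pf4 and Spp1 lie higher in all 3 D3 sums than in any D1 sum, and Ccl5, Rsad2 and Isg15 lower.

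Of 14 genes for phagocytic and Fc receptors tested, 6 rose and 1, Clec4e, fell (median 0.754). Among the 6, Itgam, the integrin subunit CD11b, Stab1, the scavenger receptor stabilin-1, and Msr1, the class A scavenger receptor, had log2 changes of 3.57, 3.46 and 2.85, and Fcgr3, an IgG receptor, of 2.29. Of 7 complement genes tested 5 rose and none fell (median 2.00). C1qa, a chain of C1q, had 123, 326 and 816 CPM at D1 and 5507 CPM in mouse 2 in collagen and 1088 and 1114 CPM in mice 1 and 2 in Matrigel at D3, with the collagen sum the highest (log2 change 2.56, SE 0.35, adjusted p = 0.000475). Cfp, properdin, which stabilises the alternative pathway convertase, had a log2 change of 4.04. Of 22 actin and adhesion genes 9 rose and none fell (median 0.52), among them Lgals1, galectin-1 (2.90), S100a6, a calcium-binding protein (2.76), Coro1a, coronin (1.70), and Capg, an actin-capping protein (1.34). With the mouse as a block only these 4 of the 22 passed. Wfdc17, a small secreted whey acidic protein domain protein, had 59.2, 194 and 440.2 CPM at D1 and 147 CPM in mouse 2 in collagen and 10277 and 2616 CPM in mice 1 and 2 in Matrigel at D3 (log2 change 4.10, SE 0.95, adjusted p = 0.00993). Its collagen sum lay within the D1 range, and in each Matrigel sum 1 cell held most of the UMIs (63.5% in mouse 1 and 63.1% in mouse 2). Without mouse 2, C1qa, Coro1a and Capg no longer passed (log2 changes 1.99, 0.41 and 1.30; adjusted p = 0.193, 0.688 and 0.149), and Capg and S100a6 also not without members carrying another immune signal (0.92 and 1.85; adjusted p = 0.0637 and 0.0842).

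Mmp8, a collagenase known from neutrophil granules, had 0, 35.1 and 130.3 CPM at D1 and 284 CPM in mouse 2 in collagen and 3127 and 1339 CPM in mice 1 and 2 in Matrigel at D3 (log2 change 4.70). The neutrophil list, which contains Mmp8, had 3340.0, 1430.0 and 318 CPM in Matrigel mouse 1, Matrigel mouse 2 and collagen mouse 2 at D3, and 23.3 to 493 CPM at D1. In each of these D3 sums Mmp8 itself made up most of the list's value, so the list mostly repeats Mmp8. In collagen mouse 2 at D3, 98.3% of the 60 Mmp8 UMIs came from 1 cell. All 16 D3 macrophages with Mmp8 also held Pf4. The part of a neutrophil transcript source in this value was not tested.

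Interferon response genes fell in macrophages. Of 21 tested, 15 passed as lower and none as higher, with a median log2 change of -2.09, while the median of the list in the other cells was -0.042. Isg15, a ubiquitin-like modifier, had 322, 2152 and 2961 CPM at D1 and 175 CPM in mouse 2 in collagen and 136 and 269 CPM in mice 1 and 2 in Matrigel at D3, so that all D3 sums lay below all D1 sums (log2 change -2.98, SE 0.58, adjusted p = 0.00373). In the other cells its median went from 186 to 167 CPM, and the difference between the classes was -3.12, adjusted p = 0.0104. Rsad2, the antiviral enzyme viperin, had 25.6, 733 and 3020.5 CPM at D1 and 4.74, 22.7 and 9.60 CPM at D3 (log2 change -6.42, SE 1.37, adjusted p = 0.00631), and was detected in 37.3% of 150 D1 and 0 of 28 D3 macrophages after thinning (66.0% and 17.9% before thinning). Ifit3, an RNA-binding antiviral protein, Oasl1, an oligoadenylate synthetase-like protein, and Gbp3, a guanylate-binding protein, changed by -4.33, -4.17 and -4.14. Isg15, Ifit2 and Gbp2 were among the genes of the list that passed the test of a difference between the classes. Without mouse 2, none of Isg15, Rsad2, Ifit3, Oasl1 and Gbp3 passed (log2 changes from -7.49 to -2.61, adjusted p from 0.172 to 0.412), and without mouse 1 Isg15 and Ifit2 did not (-2.62 and -4.14, adjusted p = 0.0508 and 0.0534).

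Interferon-stimulated genes are known for response elements that contain the letters GAAA, any 2 bases and GAAA again (TTTC, any 2 bases and TTTC on the other strand). This core was found on either strand in the RefSeq windows of 11 of the 18 list genes that have one (61.1%) and of 3.99% of all genes. The 200 bases before the start sites of Isg15 (chr4:156200819-156201018, minus strand), Rsad2 (chr12:26456453-26456652, minus strand) and Ifit3 (chr19:34583329-34583528, plus strand) are shown, 5′ to 3′ along the gene and with matches in capitals, as 3 of the 11 that hold the core. They are examples from the genes described above.
Isg15: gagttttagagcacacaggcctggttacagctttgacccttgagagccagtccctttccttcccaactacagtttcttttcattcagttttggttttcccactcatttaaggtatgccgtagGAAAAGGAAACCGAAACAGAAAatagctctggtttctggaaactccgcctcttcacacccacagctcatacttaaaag
Rsad2: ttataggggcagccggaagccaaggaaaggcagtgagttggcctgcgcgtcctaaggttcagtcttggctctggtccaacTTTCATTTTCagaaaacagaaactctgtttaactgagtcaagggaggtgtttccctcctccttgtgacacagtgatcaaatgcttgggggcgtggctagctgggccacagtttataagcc
Ifit3: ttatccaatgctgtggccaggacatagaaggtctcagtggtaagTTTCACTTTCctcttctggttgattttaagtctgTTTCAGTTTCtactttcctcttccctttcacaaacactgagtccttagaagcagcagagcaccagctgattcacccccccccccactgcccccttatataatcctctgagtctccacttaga
The Isg15 window holds 3 overlapping matches in 1 run that begins 78 bases before the start site. The Rsad2 window holds 1 match at 120 bases, and the Ifit3 window holds 2, at 156 and 122 bases.

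Antigen presentation genes fell with them in the tested sums. H2-Aa, the MHC class II alpha chain, had 102, 1225 and 2639 CPM at D1 and 123 CPM in mouse 2 in collagen and 0 and 4.80 CPM in mice 1 and 2 in Matrigel at D3 (log2 change -4.83, SE 0.93, adjusted p = 0.00369). The tested collagen sum overlapped the D1 range, and all its 26 H2-Aa UMIs came from 1 cell. The Matrigel sums lay below that range. The collagen sum of mouse 1 at D3, left out of the test with 3 cells, was not low. Of its cells, 1 held 282 H2-Aa UMIs among 42856 UMIs, 1 held 12 among 7161 and 1 held 0. Of 6 MHC class II genes tested 4 were lower (median -2.57), with H2-Ab1, the beta chain, at -3.69 and Cd74 at -2.25. Of 11 MHC class I and immunoproteasome genes 5 fell, among them H2-K1, a class I heavy chain (-1.16), Tap2, a peptide transporter (-2.06), and Psme2, a proteasome activator (-1.13). Without mouse 2 none of these 6 genes passed (adjusted p from 0.107 to 0.506), and without mouse 1 Cd74 and Psme2 did not (0.121 and 0.0685).

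Of 15 NF-kB and inflammatory genes 7 fell and none rose (median -1.40). Acod1 changed by -3.71, Il1b by -2.50, Icam1, a leukocyte adhesion ligand, by -2.65, and Birc3, an apoptosis inhibitor, by -2.30. Of 17 antioxidant and haem genes 10 fell (median -1.27, and the same with Slc40a1 at its bound), while their median in the other cells was -0.201. Hmox1 changed by -1.84 and Srxn1, sulfiredoxin, by -2.95. Both also fell in the other cells (-1.58 and -1.31), and neither passed the test of a difference between the classes (-0.32, adjusted p = 0.859 for Hmox1 and -1.76, adjusted p = 0.0533 for Srxn1), although Srxn1 did with the replicate block (-1.69, adjusted p = 0.0407). Lipa, the lysosomal acid lipase, changed by -3.16 and Spic, a transcription factor of iron-recycling macrophages, by -5.78. Without mouse 2, Il1b, Icam1, Birc3, Srxn1 and Spic no longer passed (adjusted p from 0.0643 to 0.427), while Acod1, Hmox1 and Lipa did. Icam1 was also lost without members carrying another immune signal (-2.06, adjusted p = 0.0798).

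For 3 named genes no UMI was found in the D3 sums, so only a bound can be given, against 3 counts over the 3 sums together (5.91 CPM). Treml4, a receptor of monocytes and macrophages, had 73.0 CPM over the D1 sums and was at least 12.4-fold lower. Vcam1, a vascular and macrophage adhesion molecule, had 129 CPM and was at least 21.8-fold lower. Slc40a1, the iron exporter ferroportin, had 53.1 CPM and was at least 8.99-fold lower. All 3 passed over the 3 sums, and none did without mouse 2 (adjusted p from 0.137 to 0.504), nor did Vcam1 without mouse 1 (adjusted p = 0.0595).

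Among the genes that rose most, Nme2 also rose in the other cells of the same pools. Nme2, a nucleoside diphosphate kinase, had 0, 3.90 and 10.2 CPM at D1 and 256, 261 and 269 CPM at D3 (log2 change 5.76). In the other cells it changed by 5.61 (adjusted p = 1.42e-12), and the difference between the classes was 0.10, adjusted p = 0.977. This value moves with the pool as a whole, and its source was not tested.

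The D3 cells were of unequal kinds. Of 28, 3 held both Ccr7, the lymph node homing receptor, and Fscn1, an actin-bundling protein, which together mark migratory dendritic cells, and none of these held Pf4 or Lyz2. They came from 3 collagen cultures, 1 each of mice 1, 2 and 3. All 25 others held Lyz2 and 23 held Pf4, and in Matrigel all 16 held both. The D1 cells were mixed as well. Of 157, 41 held Ccr7, beside 3 of 28 at D3, and Ccr7 was among the genes that passed as lower at D3. At D1, 12 cells held Ccr7 and Fscn1 together, 71 held Pf4, 101 held C1qa, and 13 held both Pf4 and Ccr7. The part of the Ccr7 cells in the fall of other genes was not tested. Without the 29 members that carried another immune list, 350 genes passed between D3 and D1. The dendritic list was present in 18 members, 15 of them at D1, and the neutrophil list in 11, 3 of them at D1. This setting thus removed a larger part of the 28 D3 cells than of the 157 D1 cells. It did so partly through the neutrophil list, which at D3 mostly repeats Mmp8. The reason for the lower number of genes was not tested.

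Mki67, a nuclear protein of cycling cells, was seen in few macrophages. After thinning it was detected in 2 of 150 macrophages at D1 (1.33%, exact 95% interval 0.162 to 4.73%) and in 12.4% of the other cells (11.1 to 13.7%), and before thinning in 11.3% and 40.0%. At D3 it was detected in 2 of 28 macrophages (7.14%) and 19.1% of the other cells.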

How the data were processed

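The deposited matrix holds UMI counts per gene and cell, made by the authors with Cell Ranger 3.0.2 and Scanpy 1.4.4 on GRCm38 (mm10), per the submitters' processing notes, which name no gene annotation. The authors' deposited cell annotation gave mouse, matrix, day, the UMI count and the mitochondrial fraction of each cell. No doublet caller was run. The counts of all macrophages of 1 mouse in 1 matrix on 1 day were added up. Sums of at least 10 cells (5 for D3 against D1) were tested with edgeR 4.0.16 (R 4.3.3), a quasi-likelihood test with TMM scaling, filterByExpr and Benjamini-Hochberg adjustment over all genes tested, called at an adjusted p under 0.05. Shares were tested with exact permutations over mice (SciPy 1.17.1). The macrophages of a tested sum held 101307 to 746992 UMIs at D1 and 88255 to 211017 at D3, and binomial intervals cover counting error only. Alternatives included DESeq2 1.42.0 and limma 3.58.1 (log2(CPM + 1) averaged over cells). On simulated counts for the comparison of matrices (4697 genes), 18% of genes changed 2-fold and 83% of those changed 4-fold were recovered, and for D3 against D1 (3148 genes) 39% and 89.9%. The simulated sums were independent, every gene had the same dispersion (0.0797, from the comparison of matrices), and only genes of at least 50 CPM were changed. In the data the spread differs between genes, so these shares do not give the recovery in the real tests.

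The genes named are, of those called, the 12 with the highest and the 12 with the lowest log2 change that had at least 50 CPM in 1 group and the same sign in every mouse with both sums, without predicted, mitochondrial and ribosomal protein genes, the 8 marker genes, up to 4 members of each list with the smallest p, and the 20 most separated genes of at least 200 CPM. C1qb, Ifit2 and Gbp2 are named as members of lists. The members, lists and genes were chosen with earlier results of these data known. List genes missing from the matrix were not analysed here. The mouse pairs the samples because the labels give the same 4 animals in both matrices. Same-mouse collagen and Matrigel deviations correlated with r = 0.242, -0.067 and 0.124 over 1361 genes. Pairs of different mice ranged from -0.206 to 0.269, so the same-mouse values lay within that range. Results that need items withheld from this text are not reported here.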

Additional observations from a re-analysis of the deposited data

Results flagged for a closer look

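In 48 groups of 4 Matrigel sums at D1, 6 held 1 sum far from the other 3. Chance would give about 1 in 20 if the groups were independent. They are genes of the same 4 sums, so the count cannot be read as an excess. The highest value stood apart for Fcgr1 (147 CPM, mouse 1), Arg1 (36.5 CPM, mouse 3), Krt8 (128 CPM, mouse 4), Krt18 (521 CPM, mouse 4) and Timp1 (40.9 CPM, mouse 4), and the lowest for Clec4n (2810.0 CPM, mouse 3). The sum of mouse 4 holds 10 cells.

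For 18 genes of 45 followed from D1 to D3, the log2 change in macrophages differed from that in the other culture cells by the edgeR test of the difference. Of the 45, 44 had already passed between D3 and D1 in macrophages, so this share is set in part by that choice. Over all 10562 genes tested, 343 passed (3.25%). The 18 changes are listed by direction. The log2 change was larger in macrophages for Ccl2 (by 6.9), Ccl7 (6.2), Msr1 (5.75), Wfdc17 (5.5), Itgam (5.4), Pf4 (3.91), Cfp (3.89), Spp1 (3.82), Stab1 (2.66) and Coro1a (2.35). It was lower for Acp5 (-5.13), Lipa (-3.65), Isg15 (-3.12), Icam1 (-2.66), Tap2 (-2.17), Birc3 (-1.99), Psme2 (-1.92) and H2-K1 (-1.28). Pf4, Msr1, Wfdc17, Cfp, Itgam and Stab1 are at trace levels in the other cells, so their change there rests on few counts. Without mouse 2, 2 genes passed this test over the transcriptome, and without mouse 1, 27 did.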

How the results depend on the processing

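The 5 genes that differed between the matrices all passed with the replicate block (218 calls), no filter on low counts (263), sums of at least 20 cells (159), a rule of 20 per 10000 and all 4 genes (79), at least 5000 UMIs a cell (70), DESeq2's Wald test (65), no members with epithelial UMIs (40), no members with another immune signal (17), all days in 1 fit (9) and sums of at least 5 cells with the block (116). Of the 5, 4 passed with sums of at least 5 cells (26 calls) and 3 with limma (173 calls, median of all genes -0.804). DESeq2 size factors gave the same 5 calls, and a rule of 5 per 10000 gave 5 calls, 3 of them among the 5. Leaving out 1 mouse gave 0 to 89 calls, and 0 to 63 with sums of at least 5 cells. For the difference between matrix effects in macrophages and other cells the counts were 10 with the block, 5 without members with epithelial UMIs and 0 to 15 without a mouse. From D1 to D3 they were 350 without members with another immune signal and 87 to 720 without a mouse, and for the change against the other cells 2 to 529. The fall of the collagen share was -4.86 paired by mouse (exact permutation p = 0.125), -3.63 with the stricter rule (exact permutation p = 0.0857), and -6.18 to -3.71 without a mouse. The UMIs per macrophage differed by -4300 paired by mouse (exact permutation p = 0.125) and by -4993 to -3550 without a mouse. The cause was not tested for any of these.

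None of the 5 genes, and none of the named genes that passed from D1 to D3, changed sign under any alternative run. Among genes that had not passed, the matrix difference changed sign for Cd74 (replicate block -0.0825, at least 5000 UMIs -0.0419, at least 5 cells with the block -0.14, from -0.23 to 0.81 without a mouse, and -0.0754 at the lowest with at least 5 cells), Ccl5 (replicate block -0.0447), Apoe (limma 0.49), Pf4 (from -1.54 to 0.36 without a mouse, at least 20 cells 0.29), Il1b (from -0.51 to 0.38 without a mouse, at least 20 cells 0.0731), Krt8 (from -1.29 to 2.13 without a mouse, limma -0.33) and Krt18 (from -1.85 to 3.23 without a mouse, at least 5 cells -0.10, 5 per 10000 -0.0836, at least 5 cells without a mouse -0.27 and -0.24). The planned test of D3 against D1 in collagen macrophages was not run, since no D3 collagen sum held 10 macrophages. Depth limits the comparison of matrices, in which 2 mice stand for collagen.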

Other observations

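One macrophage of collagen mouse 2 at D1, chosen after its values were seen, held 235 UMIs of Ctsk, 339 of Acp5 and 24 of Atp6v0d2 among 37224 UMIs. These genes encode cathepsin K, tartrate-resistant acid phosphatase and a proton pump subunit, which are known from osteoclasts. Ctsk was detected in 7 macrophages, with 18 UMIs in the next highest, and in 128 of 7018 other culture cells.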
